A study of Mus musculus with 22 samples.

Results

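The replication-dependent histone genes supply the H1, H2A, H2B, H3 and H4 proteins on which new DNA is packed. They were taken here as every gene whose symbol begins with Hist, a cluster number from 1 to 4 and the letter h, which gave 68 of the 23361 genes in the expression table. Of these, 6 code for the linker histone H1, 18 for H2A, 19 for H2B, 12 for H3 and 13 for H4. Cluster 1, on chromosome 13, holds 54 of them, cluster 2, on chromosome 3, holds 10, cluster 3, on chromosome 11, holds 3 and cluster 4 holds 1. The values are FPKM, a fragment count scaled to transcript length and to the mapped fragments of the library, from RNA sequencing of the microdissected CA1 region of the hippocampus.

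All mice were wild-type females of a Swiss Webster x DBA/C57BL6 F1 background. The paper describes the libraries of a group as biological replicates, so p-values measure the spread between these mice. Mice fed ad libitum (AL) at 5 months (n = 5) and at 15 months (n = 6) were set against calorie-restricted (CR) mice at 5 months (n = 5) and at 15 months (n = 6). The CR diet was lowered in carbohydrate, was portioned against the intake of the AL mice and began in young adulthood, so older CR mice had also been restricted for longer. The 4 groups let the histone genes be compared between ages within a diet and between diets within an age. Library depth cannot be read from FPKM. Between 18281 and 19175 genes were above 0 in a library, and the median FPKM lay between 2.51 and 3.10.

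In dividing cells, replication-dependent histone genes are typically switched on together at the start of DNA synthesis. Their mRNAs typically end in a short stem-loop in place of a poly(A) tail. The set here rests on the symbol alone and includes a pseudogene, so not every member need be of this kind. The stem-loop is bound by the stem-loop binding protein, and the mRNA is cut just after it with the help of the U7 particle. When DNA synthesis stops, the messages are degraded. Cells that have left the cell cycle, such as neurons, still need histones, and some of the genes also give longer transcripts with a poly(A) tail from a site beyond the stem-loop. The libraries were made with a kit that selects poly(A) RNA and does not record the strand, so a message that ends at the stem-loop would be captured poorly. The level of a gene here is therefore read mainly as that of its polyadenylated transcripts, and carry-over of other messages was not measured. In bulk tissue, fewer cells of a type and less RNA per cell cannot be told apart.

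The conserved histone stem-loop, its 2 varying bases left free, was searched for on the transcript strand in GENCODE M21 models (build GRCm38). For each gene 1 transcript was used, the longest with a coding sequence, and nothing beyond its end was searched. It was found without mismatch in 32 of the 68 genes and with 1 mismatch in 10 more. The windows below are those of the most abundant genes in which it was found, with 7 bases on either side and the stem-loop in capitals. How much annotated transcript lies beyond the stem-loop cannot be seen in the windows and is given after them.
Hist3h2ba: acccaaaGGCTCTTTTCAGAGCCaccttcc
Hist3h2a: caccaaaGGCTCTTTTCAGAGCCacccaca
Hist1h1c: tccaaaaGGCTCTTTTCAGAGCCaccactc
Hist1h2be: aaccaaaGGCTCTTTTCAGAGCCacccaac
Hist2h3c1: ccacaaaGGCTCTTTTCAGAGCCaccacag
Hist2h3c2: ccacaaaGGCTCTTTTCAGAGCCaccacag
Hist1h4i: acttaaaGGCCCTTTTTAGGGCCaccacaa
Hist2h4: ccctaacGGCCCTTTTTAGGGCCaaccaca
Hist1h4h: aaccaaaGGCCCTTTTCAGGGCCgcccaca

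The varying pair in the stem went with the class. The form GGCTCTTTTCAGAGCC stood in 3 H1, 10 H2A, 7 H2B and 5 H3 genes, and the form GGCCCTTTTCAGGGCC in 7 genes, which were all H4. The H3 genes Hist2h3c1 and Hist2h3c2 had the same 30 bases. In the H2B gene Hist3h2ba, whose window lies at chr11:58949342-58949371 on the + strand, the annotated transcript went on for 169 bases after the stem-loop. It went on for 1643 bases in the H2A gene Hist3h2a (chr11:58955165-58955194, + strand), 840 in the H1 gene Hist1h1c (chr13:23739505-23739534, + strand) and 1861 in the H2B gene Hist1h2be (chr13:23585524-23585553, - strand). The distance was 1167 bases in Hist2h3c1 (chr3:96247320-96247349, + strand), 377 in Hist2h3c2 (chr3:96238478-96238507, - strand), 330 in the H4 gene Hist1h4i (chr13:22040959-22040988, - strand) and 1257 in the H4 gene Hist2h4 (chr3:96262932-96262961, - strand). Hist1h4h was the exception among these, with 46 bases after the stem-loop (chr13:23531451-23531480, + strand).

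Levels differed by annotated end. Of the 22 genes whose model runs at least 100 bases past the stem-loop, 8 averaged 1 FPKM or more across the 22 libraries, and the median of the 22 was 0.535. Of the 20 genes whose model stops within 100 bases of it, Hist1h4h alone reached a mean of 1, and the median was 0.0411. Among the 6 genes with no match but at least 100 bases after the stop codon, 2 reached it, Hist1h2bc, whose model joins 2 exons, and Hist2h2be. Among the 19 with no match and a shorter end, 2 did, Hist2h2bb and Hist1h4k. Both of these models have 0 bases after the stop codon, so a stem-loop beyond it could not be found. A missing match is therefore a trait of the transcript searched and does not show that a gene lacks the stem-loop. The remaining member, Hist3h2bb-ps, is annotated as a pseudogene and had a mean of 0.378. The share of a transcript's 50-base stretches found in no other gene's transcripts also differed between the end classes. With under 100 bases after the stem-loop it reached 60.5% at most, in Hist1h4f. With 100 or more it ran from 0% in Hist2h3c1 to 100% in Hist1h1t. Whether the levels go with the end or with this share was not tested. These are descriptions of gene models, and whether the annotated ends are used in these mice was not tested. The ends are those of GENCODE, while the authors computed FPKM on gene models that the paper does not name. Those models may end elsewhere, which bears on the counts and lengths behind each level.

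**Figure D1:**
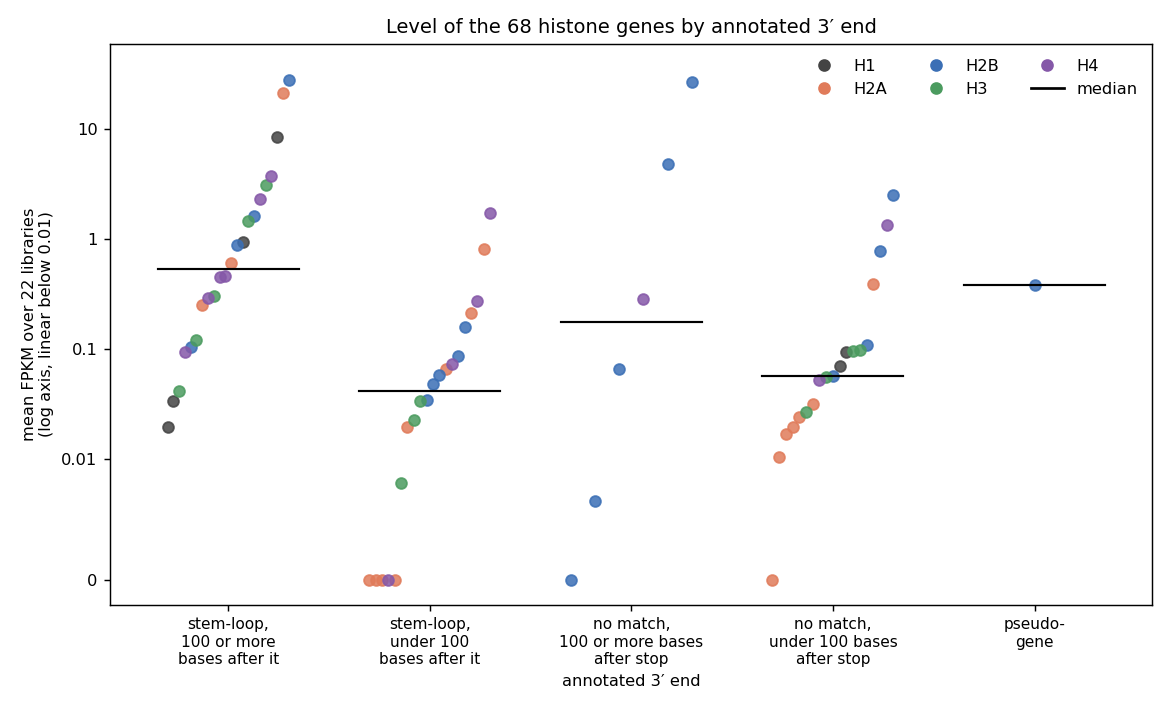
Mean FPKM over the 22 libraries of each of the 68 histone genes (vertical axis, logarithmic above 0.01 and linear below it) by annotated 3′ end, with colours for the 5 classes and a bar at the median of each end class. The 22 genes with at least 100 bases after the stem-loop have a median of 0.535, and the 20 with fewer have a median of 0.0411, 5 of them at 0.

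A few genes held most of the signal. Hist3h2ba (28.1 FPKM), Hist1h2bc (27.3) and Hist3h2a (21.4) made up 65.6% of the summed mean FPKM of the 68 genes, and only 13 genes had a mean of at least 1. H2B genes held 57.3% of the sum, H2A genes 20.4%, H4 genes 9.47%, H1 genes 8.28% and H3 genes 4.57%. Next in rank stood Hist1h1c at 8.53, Hist2h2be at 4.82, Hist1h4i at 3.75 and Hist2h3c1 at 3.08 FPKM. The other 6 were Hist2h2bb (2.52), Hist2h4 (2.30), Hist1h4h (1.72), Hist1h2be (1.61), Hist2h3c2 (1.47) and Hist1h4k (1.34). Of the 68 genes, 19 were above 0 in every library and 7 were listed at 0 in all 22.

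A low-value filter of a mean FPKM of 0.1 left 32 of the 68 genes for testing, namely 2 of 6 H1, 6 of 18 H2A, 11 of 19 H2B, 4 of 12 H3 and 9 of 13 H4 genes. The lowest gene kept was Hist1h2bh at 0.104, and the highest left out was Hist2h3b at 0.0975. No value of the 36 genes left out exceeded 0.477 in any library. Near-identical copies bear on these values, since the reads were 50 bases long and the authors shared out reads that mapped to several places. The share of a transcript's 50-base stretches found in no other gene's transcripts had a median of 69.4% in the 13 most abundant genes and 6.93% in the 7 genes listed at 0. It was 36.5% in Hist2h3c2, 28.5% in Hist1h4k and 0% in both Hist2h3c1 and Hist2h2bb, so that levels of these 4 genes are uncertain. All stretches of Hist2h3c1 also lie in the overlapping model Gm20634 on the same strand, and those of Hist2h2bb in Gm20628 on the opposite strand. Hist2h2bb also overlaps Gm42743 on the same strand, and none of these models is a row of the table. The 0% values thus come with models at the same locus and do not by themselves measure reads that map to several places. Of the Hist2h3c2 stretches, 63.5% occur in Hist2h3c1, so the pair of H3 genes may share reads. Hist3h2a overlaps the exons of Trim17, and Hist1h2be those of Hist1h1e, on the same strand.

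RefSeq promoter windows (GRCm38.p6), which run from 250 bases before to 50 after an annotated start, were found for 62 of the genes and numbered 63. The TATA box core TATAAA, counted on either strand, stood in 55.6% of them and in 13.6% of all 32851 mouse promoters. CCAAT, the box bound by NF-Y, stood in 85.7% against 37.4%. The octamer ATTTGCAT, the H2B promoter element bound by Oct factors, stood in 22.2% against 1.74%. Neighbouring genes that point away from each other can share a window, and a match is a description of letters and not of binding. The 250 bases before the start of 3 of the abundant genes are shown because they differ in the kind or number of these boxes, with motifs of either strand in capitals.
Hist3h2ba: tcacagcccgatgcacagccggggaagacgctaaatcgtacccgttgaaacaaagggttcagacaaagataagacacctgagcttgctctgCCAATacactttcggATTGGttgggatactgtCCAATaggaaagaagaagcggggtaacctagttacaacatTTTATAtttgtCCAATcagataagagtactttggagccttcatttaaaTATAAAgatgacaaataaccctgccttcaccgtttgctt
Hist3h2a: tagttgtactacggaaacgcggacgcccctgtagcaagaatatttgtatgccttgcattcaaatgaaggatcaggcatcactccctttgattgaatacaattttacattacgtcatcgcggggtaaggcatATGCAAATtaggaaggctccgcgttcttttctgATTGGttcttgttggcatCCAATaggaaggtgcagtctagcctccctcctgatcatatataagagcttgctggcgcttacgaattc
Hist1h2be: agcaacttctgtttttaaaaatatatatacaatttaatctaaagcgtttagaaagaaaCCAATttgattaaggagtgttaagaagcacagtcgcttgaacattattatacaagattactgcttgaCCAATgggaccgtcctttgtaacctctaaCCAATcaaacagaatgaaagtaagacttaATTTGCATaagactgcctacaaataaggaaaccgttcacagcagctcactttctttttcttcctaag

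Hist3h2ba (chr11:58948661-58948910, + strand) held 4 CCAAT and 2 TATAAA matches. Hist3h2a (chr11:58954435-58954684, + strand) held 2 CCAAT matches and 1 octamer. Hist1h2be, of which the window at its own stem-loop locus is shown (chr13:23585971-23586220, - strand), held 3 CCAAT matches and 1 octamer. The promoters of Hist2h3c1 and Hist2h3c2 had an identical run of 231 of their 300 bases. Hist1h2bc was not among the genes matched.

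Before the groups are compared, 1 property of the libraries has to be stated, because it also differs between the groups. In CA1 pyramidal neuron markers (6 genes, among them Fibcd1 and Wfs1), the summed FPKM was 232 to 507 in AL mice at 5 months, 299 to 439 in CR mice at 5 months, 180 to 278 in AL mice at 15 months and 96.1 to 436 in CR mice at 15 months. For neocortex and subiculum markers (10 genes), the corresponding ranges were 109 to 150, 85.3 to 159, 189 to 350 and 116 to 309. Dentate gyrus markers (7 genes, among them Prox1 and Dsp) summed to 24.8 to 68.7, 17.0 to 46.8, 14.7 to 46.6 and 13.5 to 138. No tested gene of these lists was at 0 throughout a group. A region score, the mean log2 level of the neocortex and subiculum list minus that of the CA1 list, lay between -3.46 and -1.93 in AL mice at 5 months and between -0.92 and 0.98 in AL mice at 15 months, without overlap. It lay between -3.27 and -2.51 in CR mice at 5 months and between -2.93 and -0.12 in CR mice at 15 months. Tissue composition and group can therefore not be told apart in the age comparison of AL mice.

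The summed FPKM of the 68 genes was 127 ± 16 in AL mice (SD, n = 5) and 132 ± 10.6 in CR mice (n = 5) at 5 months, 87.5 ± 11.2 in AL mice at 15 months (n = 6) and 126 ± 27.1 in CR mice at 15 months (n = 6). The AL libraries at 15 months ran from 74.2 to 103.5, below every AL library at 5 months (108.1 to 147.1) and every CR library at 5 months (122.7 to 149.8). The CR libraries at 15 months ran from 101.7 to 167.9 and had the widest spread. All 5 classes had their lowest mean sum in AL mice at 15 months. The H2B sum was 73.4 ± 7.48, 74.5 ± 5.77, 51.7 ± 5.29 and 71.2 ± 15.1 FPKM in the 4 groups in the same order, and the H3 sum 5.52 ± 1.46, 5.86 ± 0.474, 3.20 ± 0.751 and 6.96 ± 1.60. The sums are given as values and no test was run on them.

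**Figure D2:**
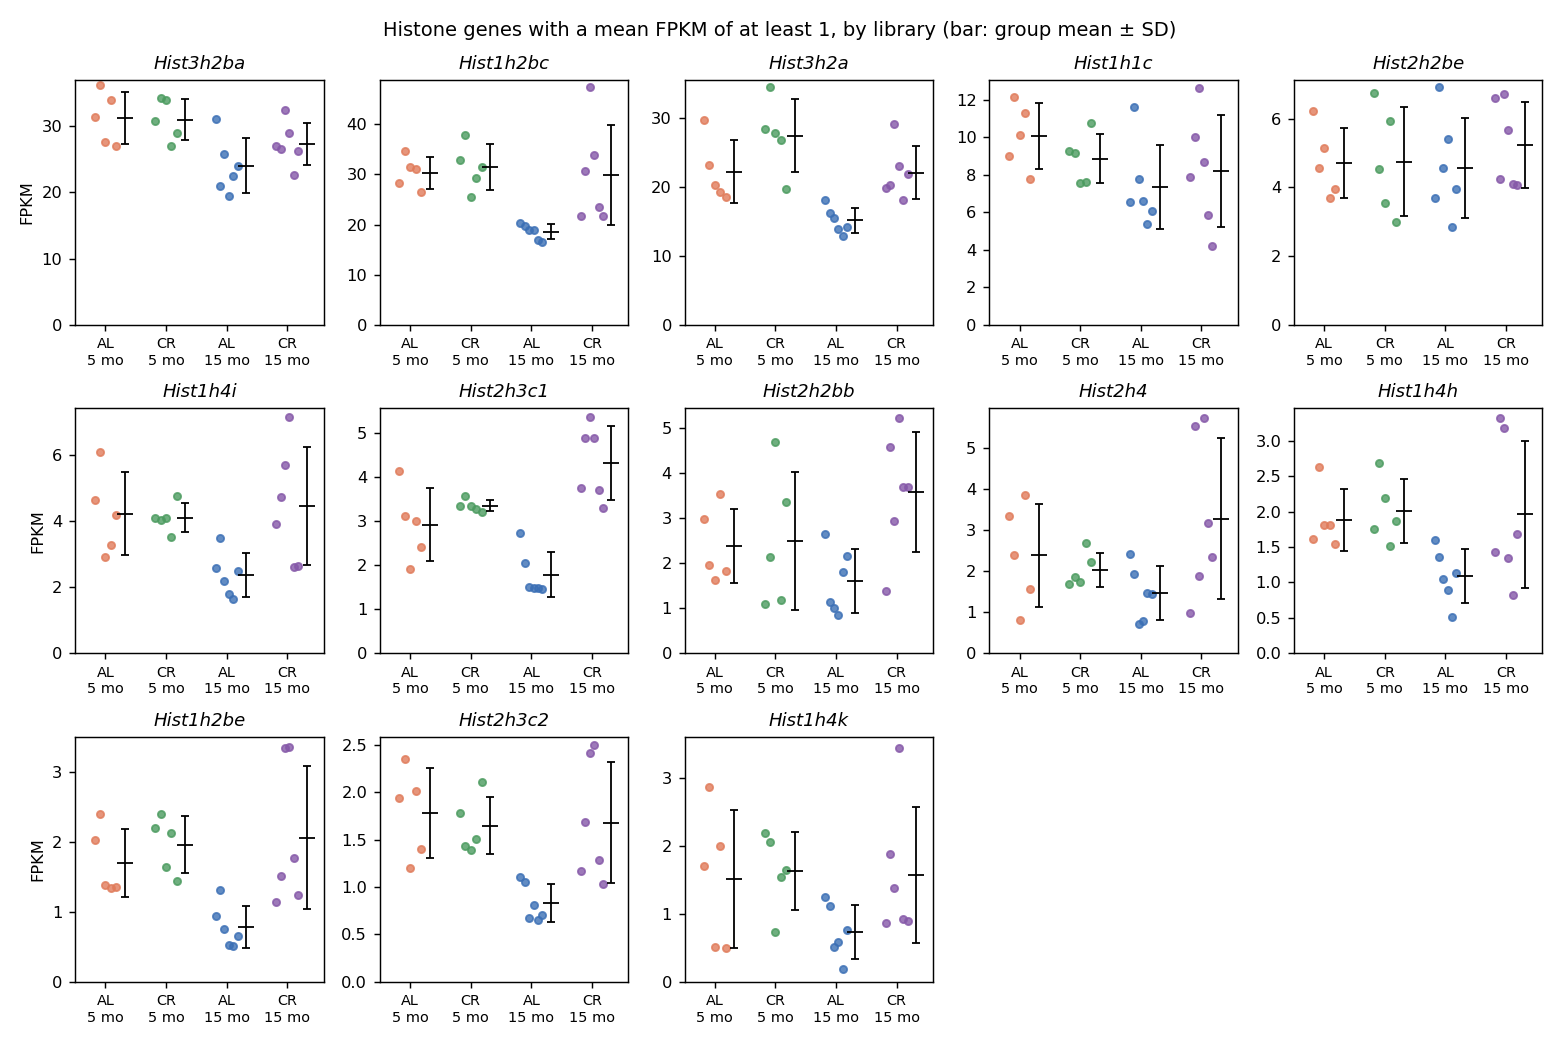
FPKM of the 13 most abundant histone genes, with 1 point per library for AL and CR mice at 5 and 15 months and a bar for the group mean ± SD. Hist1h2bc is at 20.3 FPKM or lower in all 6 AL libraries at 15 months and at 21.8 or higher in the libraries of the other groups, while Hist2h2be overlaps in all groups.

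Between 5 and 15 months in AL mice, 7 of the 32 tested genes fell and 0 rose (limma on log2(FPKM + 0.1), Benjamini-Hochberg adjusted over 16978 genes, threshold 0.05). They were 3 H2B genes, 2 H3 genes, 1 H2A gene and 1 H4 gene. In the same comparison 20.6% of all genes tested were called, of which 9.97% were lower and 10.7% higher. At an unadjusted p under 0.05 there were 11 of 32 histone genes, or 34.4%, which is near the 35.2% among all genes. By direction, 26 of 32 fold changes were negative, with a median log2 fold change of -0.43 against -0.0018 for all genes. In 5 histone genes all 6 older libraries lay below all 5 younger ones, which 6.77% of all genes did.

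H2A and H2B pair up in the nucleosome core, and the 3 most abundant histone genes belong to these classes. Hist1h2bc stood at 26.4, 28.2, 31.1, 31.6 and 34.6 FPKM in the AL mice at 5 months, and at 16.5 to 20.3 with a median of 18.9 at 15 months. Every older library was below every younger one, a log2 fold change of -0.70 ± 0.16 (SE, adjusted p = 0.00407, limma, and p = 0.00433 in an exact two-sided permutation test, the smallest 5 against 6 libraries allow). Hist3h2a stood at 18.5, 19.2, 20.2, 23.2 and 29.7 at 5 months and at 12.9 to 18.1, median 14.8, at 15 months. These groups did not overlap either, with a fold change of -0.53 ± 0.14 (adjusted p = 0.0118).

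Hist3h2ba, which lies in cluster 3 with Hist3h2a, was at 26.9, 27.7, 31.4, 34.0 and 36.2 FPKM in AL mice at 5 months and at 19.4 to 31.1, median 23.3, at 15 months. It had the smallest change of the 7, -0.39 ± 0.11 (adjusted p = 0.0190), and 1 older library at 31.1 reached into the younger range. Hist1h2be, an H2B gene of low level, was at 1.35, 1.35, 1.39, 2.03 and 2.41 at 5 months and at 0.512 to 1.31, median 0.707, at 15 months. All older libraries were lower, by -1.05 ± 0.28 on the log2 scale (adjusted p = 0.0120), the largest change of the 7.

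The H3 genes Hist2h3c1 and Hist2h3c2 both lie in cluster 2, on opposite strands, with the H2A genes Hist2h2aa1 and Hist2h2aa2 between them. Hist2h3c2 was at 1.2, 1.41, 1.95, 2.02 and 2.35 FPKM in AL mice at 5 months and at 0.654 to 1.11, median 0.754, at 15 months. The groups did not overlap (-1.0 ± 0.22, adjusted p = 0.00397, limma). Hist2h3c1 was at 1.91, 2.42, 3.0, 3.12 and 4.14 at 5 months and at 1.46 to 2.72, median 1.49, at 15 months. Its groups overlapped by the older libraries at 2.05 and 2.72 (-0.68 ± 0.18, adjusted p = 0.0122). The pair cannot be counted as independent, because of the stretches they have in common.

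Of the H4 genes, Hist1h4i was called. It was at 2.93, 3.28, 4.18, 4.64 and 6.10 FPKM in AL mice at 5 months and at 1.65 to 3.49, median 2.35, at 15 months, and 1 older library, at 3.49, overlapped the younger range (-0.80 ± 0.24, adjusted p = 0.0236). Hist1h4h had a fold change of -0.78 ± 0.30 that did not pass (adjusted p = 0.0670), and Hist1h4k, Hist2h4 and the H2B gene Hist2h2bb had -0.83 ± 0.47, -0.61 ± 0.42 and -0.59 ± 0.38. Both tested H1 genes were negative, Hist1h1c at -0.48 ± 0.22 (adjusted p = 0.131) and Hist1h1e at -0.50 ± 0.23 (adjusted p = 0.126). Linker histone H1 sits outside the nucleosome core and compacts chromatin. Hist2h2be, which has 2192 bases after its stop codon and no stem-loop match, had the smallest value of the 13, -0.08 ± 0.23, with libraries from 3.68 to 6.21 at 5 months and 2.84 to 6.93 at 15 months.

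The calls were refitted with tissue marker scores as covariates. With the choroid plexus score 6 of the 7 were called, without Hist1h4i. With the region score 0 of the 7 were called, and 0 of all genes tested were, while 23 of 32 fold changes were negative, with a median of -0.21. In that fit Hist3h2a had -0.52 ± 0.24, Hist3h2ba -0.35 ± 0.19, Hist2h3c1 -0.57 ± 0.31, Hist1h2bc -0.21 ± 0.23 and Hist1h4i -0.28 ± 0.39. The region score did not overlap between the AL groups, so the fit cannot separate age from region for any of these genes. How far a single fold change moved is therefore given as a value only. With the dentate gyrus list score Hist2h3c2 was the 1 gene called (-0.53, adjusted p = 0.0206). Without the 2 AL libraries of highest region score, Hist1h2bc and Hist2h3c2 were called.

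In CR mice between 5 and 15 months 0 of the 32 genes were called by limma, beside 3.36% of all genes, and 2 had an unadjusted p under 0.05, or 6.25% against 18% of all genes. The 2 were Hist3h2a at -0.31 ± 0.14 (adjusted p = 0.252) and, outside the 13 and singled out after its value was seen, the H4 gene Hist1h4d at -1.51 ± 0.49 (adjusted p = 0.0966). Fold changes were positive in 17 genes and negative in 15, with a median of 0.04. Hist1h2bc stood at 25.4, 29.2, 31.6, 32.9 and 37.9 FPKM in CR mice at 5 months and at 21.8 to 47.4, median 27.2, at 15 months, and Hist2h3c1 at 3.21, 3.27, 3.33, 3.35 and 3.56 and at 3.30 to 5.35, median 4.31. Both overlapped between the ages. For Hist2h3c1 the fold change was 0.34 ± 0.18 (adjusted p = 0.339, limma, and p = 0.0173 in the exact permutation test, the 1 of 13 genes under 0.05, unadjusted). Calls in AL mice and none in CR mice do not by themselves show that the ages differ more under one diet, and the interaction below is the test of that.

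At 5 months no histone gene passed the test between CR and AL mice. By limma 0 of 32 were called, beside 0% of all genes, and 1 had an unadjusted p under 0.05 (the H3 gene Hist1h3e, -0.75 ± 0.34), or 3.12% against 4.65% of all genes. Fold changes were positive in 16 genes and negative in 16. Hist3h2a had the smallest p of the abundant ones, with 19.6, 26.8, 27.7, 28.4 and 34.4 FPKM in CR mice against 18.5 to 29.7 in AL mice (0.30 ± 0.15, adjusted p = 1.0, limma). In Hist1h1e all CR libraries lay below all AL libraries, a separation in the lower direction that 0.83% of all genes had.

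At 15 months 2 of 32 genes were higher in CR than in AL mice and 0 were lower (limma), beside 0.742% of all genes called in either direction, 0.33% higher and 0.412% lower. At an unadjusted p under 0.05 there were 15 of 32, or 46.9%, against 17.1% of all genes, and 30 of 32 fold changes were positive with a median of 0.53 against -0.0012 for all genes. In 3 genes every CR library was above every AL library, which 0.424% of all genes showed. Beside this, tissue markers had a median log2 fold change of 0.91 in the dentate gyrus list (7 of 7 positive), 0.74 in the CA1 list (5 of 6 positive) and -0.46 in the neocortex and subiculum list (8 of 10 negative), and 0 of these genes called. This comparison uses the same 6 AL libraries as the age comparison above, so the 2 sets of values are not independent of each other. The abundant histone genes also varied together within groups, as given below. Counts of histone genes, in this and the other comparisons, are therefore not counts of independent genes.

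Hist2h3c1 had the clearest difference. AL mice at 15 months had 1.46 to 2.72 FPKM with a median of 1.49, and CR mice had 3.30 to 5.35 with a median of 4.31. All 6 CR libraries were above all 6 AL libraries, a log2 fold change of 1.25 ± 0.17 (adjusted p = 0.00263, limma, and p = 0.00216 in an exact permutation test, the smallest 6 against 6 libraries allow). Its difference stayed called with the region score (1.2, adjusted p = 0.0453) and with the dentate gyrus score (1.02, adjusted p = 0.0199) as covariate. In a fit of these 12 libraries alone it was not called (1.25 ± 0.18, adjusted p = 0.0781), and 0 of all genes were. The overlap of its model with Gm20634 and its likeness to Hist2h3c2 limit what can be said of the gene itself.

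Hist1h2be had 0.512 to 1.31 FPKM, median 0.707, in AL mice and 1.14 to 3.36, median 1.64, in CR mice at 15 months. The groups overlapped, and all 6 CR libraries lay above the AL median (1.23 ± 0.27, adjusted p = 0.0399, limma). Of the alternatives tried, 18 of 37 took this gene past the threshold to the other side, among them the region score (1.03, adjusted p = 0.284) and the dentate gyrus score (0.81, adjusted p = 0.161). Its 2 highest libraries, at 3.35 and 3.36, were CR replicates 2 and 3, and without both the fold change was 0.82 (adjusted p = 0.235).

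The other abundant genes did not pass. Hist1h2bc ran from 21.8 to 47.4 in CR mice, above the 16.5 to 20.3 of all AL libraries (0.62 ± 0.15, adjusted p = 0.0544, and exact permutation p = 0.00216). Hist3h2a ran from 18.13 to 29.0 in CR mice and from 12.9 to 18.12 in AL mice, separated by the narrowest of margins (0.53 ± 0.13, adjusted p = 0.0653). Hist2h3c2 had 0.88 ± 0.21 (adjusted p = 0.0544) and Hist1h4i 0.83 ± 0.23 (adjusted p = 0.0858), with every CR library above the AL median in both. Hist2h2bb, Hist2h4, Hist1h4k and Hist1h4h had 1.12 ± 0.36, 1.0 ± 0.40, 0.99 ± 0.45 and 0.71 ± 0.28, with adjusted p between 0.135 and 0.262. Hist3h2ba, Hist2h2be and Hist1h1c had 0.20 ± 0.11, 0.22 ± 0.22 and 0.12 ± 0.21.

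Hist1h4d, chosen after its values were seen, had the opposite sign. It was above 0 in all 6 AL libraries at 15 months (0.121 to 0.761 FPKM) and in 2 of the 6 CR libraries, which reached 0.268 at most. The fold change of -1.46 ± 0.46 did not pass (adjusted p = 0.125), and the gene is listed at 0 in the other 4 CR libraries.

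**Figure D3:**
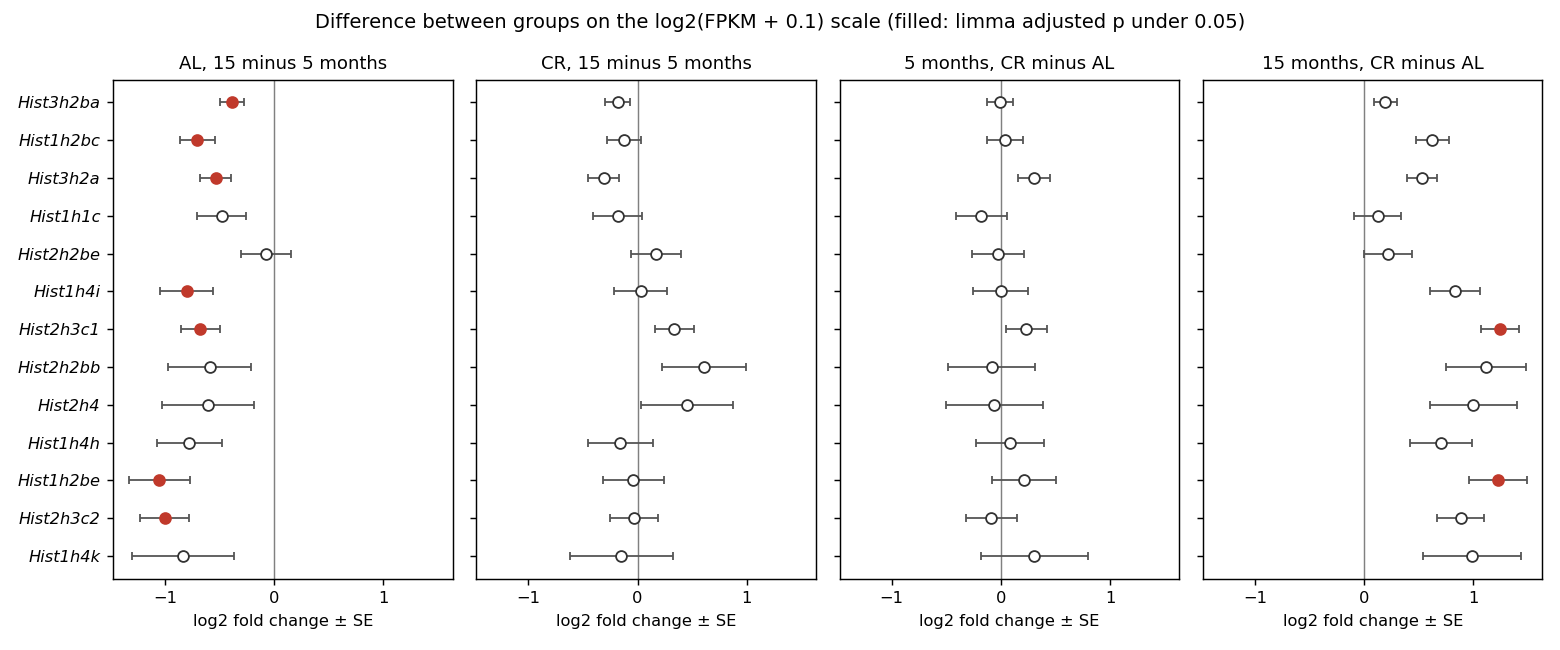
Log2 fold change ± SE on the log2(FPKM + 0.1) scale for the 13 most abundant histone genes in the 4 comparisons, with filled points where limma's adjusted p is under 0.05. Filled points stand at 7 genes in AL mice between ages, all negative, and at 2 genes between diets at 15 months, both positive, and there are 0 in the other comparisons.

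The age by diet interaction asks whether the diet difference at 15 months departs from that at 5 months. By limma 0 of 32 genes were called, beside 0% of all 16978 genes. At an unadjusted p under 0.05 there were 8 of 32, or 25%, against 7.66% of all genes, and 26 of 32 values were positive with a median of 0.60. The largest by p was Hist2h3c1 at 1.01 ± 0.25 (adjusted p = 0.587), followed by Hist2h3c2 at 0.97 ± 0.31 (adjusted p = 0.608) and Hist1h2bc at 0.58 ± 0.22 (adjusted p = 0.628). A difference in the response to age between the diets was thus not shown for any 1 histone gene.

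The histone genes also varied together among mice of the same group. With group means removed, Pearson's r between pairs of the 13 abundant genes over the 22 libraries had a median of 0.46, and 74 of the 78 pairs were positive. Over all pairs of the 13839 genes that averaged 1 FPKM or more the median was 0.0028 and 50.3% were positive. Pairs within a class had a median of 0.42 and pairs of different classes 0.49. The highest r, 0.80, was that of the H4 gene Hist1h4i on chromosome 13 with the H3 gene Hist2h3c2 on chromosome 3 (permutation p = 0.00053 within groups, 0.00827 adjusted over 78 pairs, Spearman's rho 0.79 with adjusted p = 0.0131, and r = 0.76 without the 2 libraries farthest from the median of Hist1h4i). Hist2h3c1 and Hist2h3c2 had r = 0.77 (adjusted p = 0.00721 by permutation), and Hist1h2bc and Hist1h1c, both of cluster 1, had r = 0.74 (adjusted p = 0.0124 by permutation).

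The lowest r was that of 2 H2B genes of cluster 2. Hist2h2be and Hist2h2bb had r = -0.66 with each other (permutation p = 0.00444, adjusted p = 0.0183, rho -0.63 with adjusted p = 0.0273, and r = -0.69 without the 2 libraries farthest from the median). Hist2h2bb went with Hist2h4 instead (r = 0.63, adjusted p = 0.00975 by permutation). The median r of Hist2h2bb with the other 12 genes was 0.16, that of Hist2h2be 0.27 and that of Hist2h4 0.29, and the other 10 genes ran from 0.45 for Hist3h2ba to 0.63 for Hist2h3c2. Hist2h2be was positive with 9 of the other 12, up to r = 0.53 with Hist3h2a (adjusted p = 0.0513 by permutation, r = 0.37 without the 2 farthest libraries). The reads given to Hist2h2bb cannot be told from those of Gm20628, which lies on the opposite strand. The Hist2h2bb model also overlaps Gm42743 on the same strand.

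**Figure D4:**
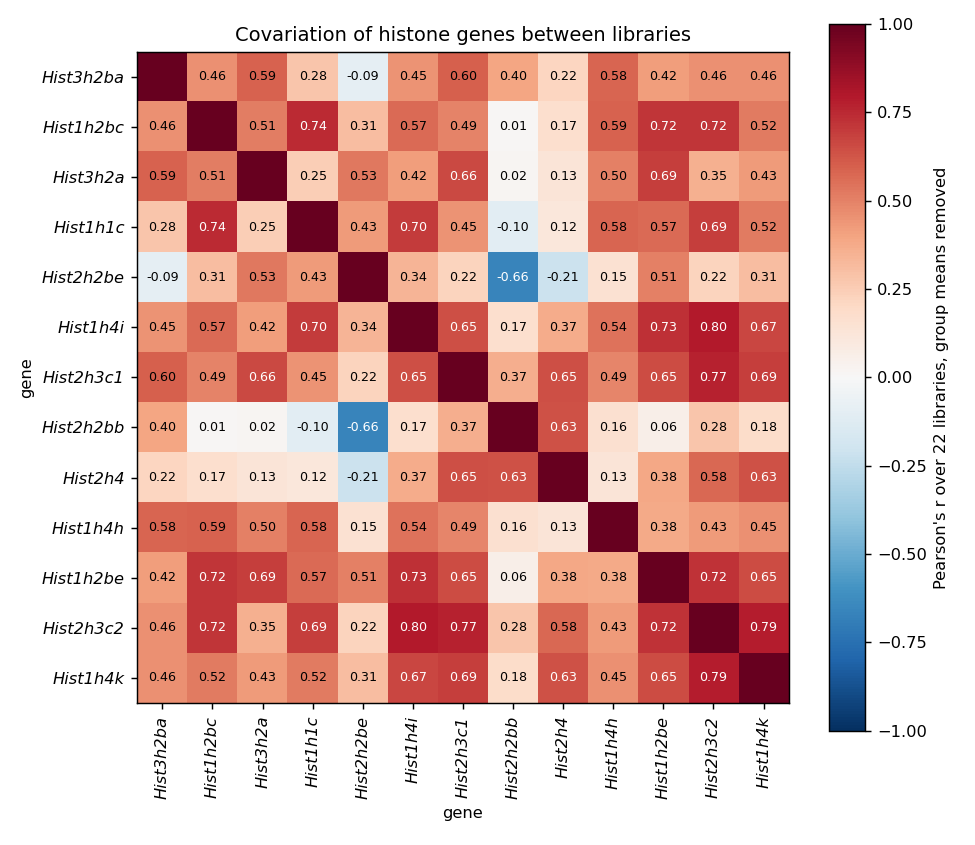
Pearson's r between the 13 most abundant histone genes, over 22 libraries with group means removed (colour from -1 to 1, values printed). Of the 78 pairs 74 are positive, and the lowest is Hist2h2be with Hist2h2bb at -0.66.

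Within groups the same libraries were high or low for most of the genes. At 15 months, AL replicates 0 and 1 had 11 of 13 genes above their group mean in each, with a median deviation of 0.39 and 0.36 on the log2 scale, and CR replicates 2 and 3 had 11 and 12 of 13, with 0.41 and 0.24. CR replicates 0, 4 and 5 had 2 of 13 each, with -0.28, -0.28 and -0.35. Dentate gyrus markers were high in the same libraries in part. The mean log2 level of that list was 1.97 and 1.83 in AL replicates 0 and 1 and 0.02 to 0.76 in the other 4, and it was 3.43 and 4.08 in CR replicates 2 and 3 and 0.06 and 0.36 in CR replicates 0 and 5. CR replicate 4 of 15 months went against this, with 2.43 beside 2 of 13 genes, where CR replicate 1 had 2.40 beside 9 of 13. At 5 months CR replicate 1 had the lowest dentate gyrus level of its group, 1.06, and the highest histone sum, 149.8 FPKM. With the dentate gyrus score removed as well as the group means, the median r was 0.30 and 62 of 78 pairs were positive. With the region score removed in its place, the median r was 0.46 and 73 pairs were positive. The part of tissue markers in the covariation was not tested beyond these values.

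**Figure D5:**
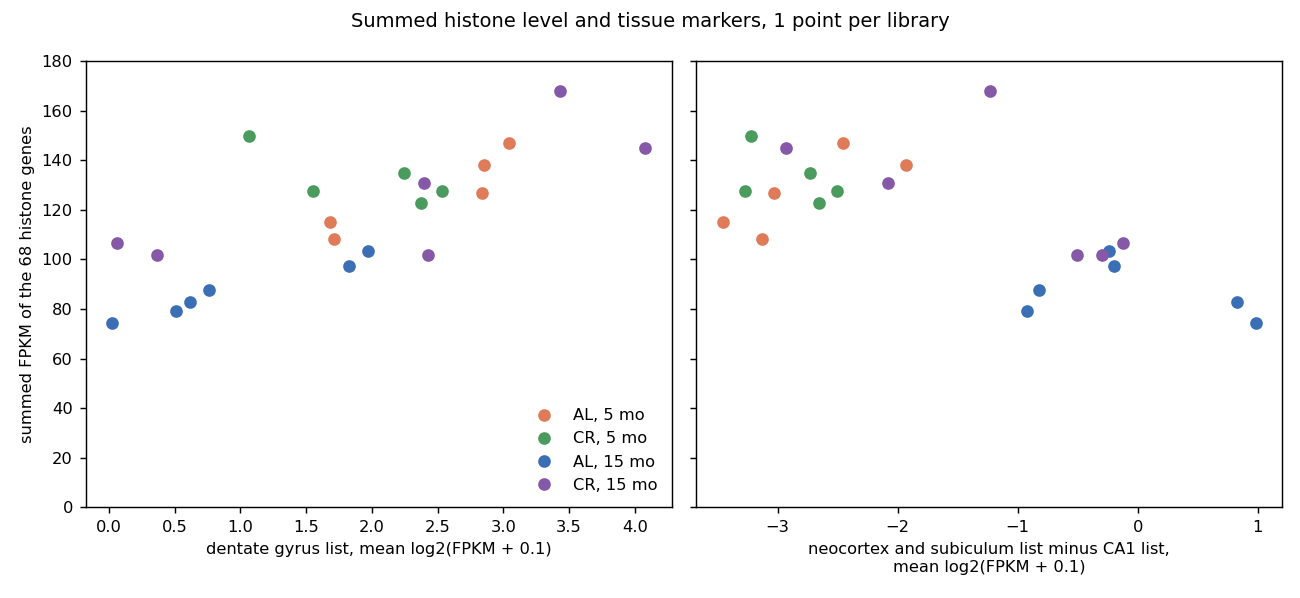
Summed FPKM of the 68 histone genes (vertical axis, from 0) against the mean log2(FPKM + 0.1) of the dentate gyrus marker list (left) and the region score, neocortex and subiculum list minus CA1 list (right), 1 point per library. AL libraries at 15 months lie between 74.2 and 103.5 and at region scores from -0.92 to 0.98, and the 2 libraries of highest dentate gyrus level, both CR at 15 months, have sums of 167.9 and 144.9.

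Replication-independent histones, which replace the others in cells that no longer divide, were followed in a list of 11 genes, all tested. In AL mice between ages 3 fell and 1 rose (limma). For this and the next 3 lists, the 20.6% of all genes called in that comparison is the level to set the counts against. H3f3a, which codes for H3.3, went from 125 ± 4.33 to 90.1 ± 7.15 FPKM (-0.47 ± 0.11, adjusted p = 0.00613), H1f0, the linker histone of non-dividing cells, from 62.0 ± 3.63 to 49.5 ± 4.11 (-0.32 ± 0.06, adjusted p = 0.00145), and H2afv from 21.8 ± 0.791 to 16.5 ± 1.16 (-0.40 ± 0.10, adjusted p = 0.00752). H2afy2, a macroH2A gene, went up from 8.61 ± 0.815 to 12.6 ± 1.27 (0.54 ± 0.12, adjusted p = 0.00435). H1f0 also fell in CR mice (-0.29 ± 0.06, adjusted p = 0.0101), the 1 call of that comparison, and 0 of 11 were called between diets at either age, with 1 and 3 at an unadjusted p under 0.05 at 5 and 15 months. H2afz had the highest mean of the list, 127 FPKM, and a fold change of 0.00 ± 0.12 in AL mice.

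Of 17 genes for the 3′ end processing and decay of histone mRNA, 2 fell and 2 rose in AL mice between ages (limma), a share near that of all genes. The cap-binding genes Ncbp1 (-0.29 ± 0.05, adjusted p = 0.000791) and Ncbp2 (-0.27 ± 0.08, adjusted p = 0.0164) were lower at 15 months. The cleavage factor gene Cstf2 (0.41 ± 0.09, adjusted p = 0.00267) and the decay helicase gene Upf1 (0.31 ± 0.09, adjusted p = 0.0261) were higher. Ncbp1 was also the 1 gene called between diets at 15 months (0.22 ± 0.05, adjusted p = 0.0430), higher in CR mice at 27.1 ± 1.95 against 23.3 ± 0.947 FPKM. In both other comparisons 0 of 17 were called, with 2 at an unadjusted p under 0.05 in CR mice between ages and 1 between diets at 5 months. Srrt, the most abundant of the list at 41.0 FPKM, had 0.06 ± 0.10 in AL mice between ages.

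Among 18 histone chaperones, Cabin1 rose (0.29 ± 0.09, adjusted p = 0.0220) and Rbbp7 fell (-0.35 ± 0.11, adjusted p = 0.0331) in AL mice between ages, and 0 were called in CR mice between ages or between diets by limma, with at most 3 at an unadjusted p under 0.05. Nap1l1, the most abundant at 116 FPKM, had 0.28 ± 0.13 in AL mice (adjusted p = 0.118). Of 19 genes of S phase and mitosis, 5 fell and 2 rose in AL mice between ages. Top2a, needed to untangle replicated DNA, went from 0.508 ± 0.244 to 0.0850 ± 0.0285 FPKM (-1.66 ± 0.21, adjusted p = 0.000134), and Ccnb1, cyclin B1, from 0.383 ± 0.147 to 0.0716 ± 0.0306 (-1.46 ± 0.19, adjusted p = 0.000147). Mki67 fell as well (-0.80 ± 0.20, adjusted p = 0.00954), and E2f1, a regulator of entry into S phase, rose (1.04 ± 0.26, adjusted p = 0.00903). These 4 genes, apart from E2f1, were below 1 FPKM in both groups. In CR mice 3 of the 19 fell, Ccnb1 (-0.74 ± 0.19), Mcm2 (-0.42 ± 0.11) and Cdk1 (-0.92 ± 0.25), with adjusted p between 0.0321 and 0.0488. Between diets 0 were called at either age, with 4 and 3 at an unadjusted p under 0.05. Pcna, the most abundant at 41.1 FPKM, had -0.25 ± 0.10 in AL mice between ages (adjusted p = 0.0717).

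Markers of other cells in the dissected tissue were read alongside. In AL mice between ages, limma called 4 of 6 CA1 pyramidal neuron genes lower, 5 of 10 neocortex and subiculum genes higher, 2 of 7 dentate gyrus genes lower and 4 of 7 choroid plexus genes lower. Called lower were also 2 of 6 oligodendrocyte precursor, 1 of 6 oligodendrocyte and 1 of 7 microglia genes, and 1 of 6 astrocyte genes in each direction. Of the 4 tested newborn neuron genes 2 were lower and 1 was higher, and 0 of 3 tested erythrocyte and 0 of 6 endothelium genes were called, with 0 and 1 at an unadjusted p under 0.05. Between diets at 15 months 0 genes of these 11 lists were called. At an unadjusted p under 0.05 there were 2 of 7 dentate gyrus, 2 of 6 CA1 and 3 of 10 neocortex and subiculum genes, and the 3 tested erythrocyte genes, 0 of them at that level, had a median of 1.38. Choroid plexus genes summed to 4.33 to 35.1 FPKM in AL mice and 11.6 to 288 in CR mice at 5 months, and to 0.793 to 6.40 and 1.09 to 4.49 at 15 months. With the choroid plexus score as a covariate 6 histone genes were called in AL mice between ages and 3 between diets at 15 months.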

How the data were processed

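RNA from the CA1 region of 22 mice was sequenced as paired reads of 50 bases with a TruSeq RNA v2 kit. TopHat was used by the authors for alignment (mm10) and Picard for duplicate removal, and Cufflinks was run with fragment bias and multi-read corrections; the deposited values are FPKM per gene, from which the depth of a single library cannot be read. From these, log2(FPKM + 0.1) was taken for the 16978 genes with a mean of at least 0.1, and all 4 groups were fitted together with limma 3.58.1 (R 4.3.3, empirical Bayes with a trend), two-sided, adjusted within each comparison. A fold change on this scale understates that of low genes. Exact permutation tests were run on 13 genes in 4 comparisons (52 tests, unadjusted), with Python 3.11.15 and scipy 1.17.1. The fit was first checked on simulated libraries in which 200 genes carried known changes. Named were all histone genes with a mean of at least 1 or called in any comparison, and of each pathway list the most abundant gene and up to 4 called genes per comparison. The members and lists were chosen with earlier results of these data known. Covariation was described with 100000 permutations within groups. Alternatives covered the pseudocount, filter, scaling, spread, replicate block, tissue scores and libraries left out. The labels name no pairing of mice by replicate number. Of 31 pairs of libraries with the same number, r of the deviations ran from -0.14 to 0.16, and 2 exceeded 0.1. Such values show no clear pairing but cannot exclude a weak one.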

Additional observations from a re-analysis of the deposited data

Results flagged for a closer look

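The highest of the AL libraries at 5 months for Hist1h4h, replicate 1 at 2.63 FPKM, stood apart from the other 4, with a gap to the next of 0.752 of the group's range where 0.71 is the critical value of Dixon's test for 5 samples. This was the 1 case among 52 groups of libraries checked, and about 1 in 20 would be singled out by chance alone.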

How the results depend on the processing

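For AL mice between ages, where 7 histone genes were called, the count was 5 to 9 with each library left out in turn, 0 with the region score as covariate, 1 with the dentate gyrus score and 2 without AL replicates 4 and 5 at 15 months. The dentate gyrus score, the pairs of libraries left out, the GC and length trend and all alternatives for the covariation were chosen after seeing the data. For diets at 15 months, where 2 were called, it was 4 with libraries set to a common median, 0 in a separate fit of the groups compared (which called 0 genes in all, Hist2h3c1 and Hist1h2be included), and 1 with the region score, with the dentate gyrus score, without AL replicates 4 and 5 or without CR replicates 2 and 3. It ran from 1 to 6 with each library left out, at 6 without CR replicate 0 or 5 of 15 months, 3 without CR replicate 4 of 5 months, and 1 without AL replicates 1, 2 or 4 or CR replicate 2 of 5 months, AL replicates 0, 2, 3, 4 or 5 or CR replicates 1, 2, 3 or 4 of 15 months. For CR mice between ages the range was 0 to 1, the 1 without CR replicate 2 of 5 months, and it was 0 to 0 for diets at 5 months and for the interaction. The replicate block gave 5 calls for diets at 15 months and 8 for AL mice between ages, and 26 of its 31 results kept their side of the threshold and direction. Since no pairing by replicate number is named or was clearly seen, this is not read as a weaker or stronger effect. Of 956 recomputed values of 26 single-gene results, 891 kept both, 41 lost a call and 23 gained one, and 1 changed sign, Hist1h1c in AL mice between ages at 0.11 with the region score. The median r of the 78 pairs, 0.46, ran from 0.43 to 0.49 with each library left out. It was 0.30 with the dentate gyrus score removed and 0.46 with the region score removed. In the 5 month libraries alone it was 0.33, and in the 15 month libraries alone 0.54. Causes were not tested. FPKM without counts give no interval for single values, and for genes below 1 FPKM small differences were not detectable.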
